A study of Mus musculus with 6 samples.

Results

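The Notch genes described here are the receptors Notch1, Notch2 and Notch3, the ligands Dll1, Dll3 and Jag1, the repressors Hes1, Hes5 and Hey1, and the DNA-binding factor Rbpj. They were chosen by symbol from a table of gene counts, and all 10 were found among its 24972 gene names. All 10 had a mean of at least 10 normalised counts and were tested together with the other genes that did, 13964 in all. Sequenced RNA came from 6 mouse neural stem cell (NSC) cultures, and the question of the design was how loss of Tsc2 alters their transcripts. Tsc2 encodes tuberin, which restrains the growth kinase complex mTORC1.

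The cultures came from the ventricular-subventricular zone (V-SVZ), a stem cell niche beside the lateral ventricles, of neonatal pups. Per the study's methods, pups of both genotypes were given tamoxifen, described as hydroxytamoxifen injected with EdU, a week before dissection. Both carried a Cre recombinase that tamoxifen activates and that a Nestin promoter drives (Nes-cre/ERT2, on C57BL/6), together with a tdTomato reporter at ROSA26. The 3 cultures labelled wild type/wild type are called wt/wt here. The 3 labelled mutant/mutant, called mut/mut, came from pups with floxed Tsc2 alleles (Tsc2tm1.1Mjg/J). Recombination was thus limited to cells in which the Nestin promoter had been active, and cells were then expanded with EGF and FGF as adherent monolayers. The methods give 3 cultures per genotype, so p-values measure the spread between cultures. The sex and litter of each culture are not given in the sources used here.

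Notch receptors are cut when a ligand on a neighbouring cell binds them. The freed intracellular part enters the nucleus, joins Rbpj and a Mastermind coactivator on DNA, and turns on repressors of the Hes and Hey families. Without it, Rbpj recruits corepressors to the same genes. In the V-SVZ this pathway is known for keeping stem cells undifferentiated, because Hes repressors hold down proneural factors.

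The values are counts that the authors had normalised with DESeq2, and each fold change compares mut/mut with wt/wt after a log2(value + 1) transform. A gene was called changed at an adjusted p under 0.05 in limma. In units of 1000000, normalised totals were 29.0 to 30.4 in wt/wt and 45.1 to 55.8 in mut/mut, and the step between low values gave an estimated 22.2 to 56.1 reads per library, fewest in mut/mut replicate 3. The targeted gene did not fall: Tsc2 was at 3231, 2934 and 2794 normalised counts in wt/wt replicates 1 to 3 and at 4766, 5645 and 8210 in mut/mut (exact two-sided permutation test, p = 0.1, the smallest that 3 against 3 allows). Its log2 fold change was 1.02 ± 0.20 as deposited, 0.31 with equal column totals and 1.30 with a trend on GC content and transcript length removed. The table gives 1 value for the whole gene, so the floxed part could not be examined here. The study blotted tuberin protein in the NSCs that were sequenced, as its own check of the genotypes, and reported that the subcultures had lost Tsc2. Those blots were not analysed here. Every direction below is that of the libraries labelled mut/mut. The NSC markers Sox2, Nes, Vim, Fabp7 and Slc1a3 were high in all 6 libraries, and the summed level of the 8 NSC markers was 258561 to 299963 in wt/wt and 232280 to 278956 in mut/mut. These sums are on the deposited scale, where normalised totals were larger in mut/mut. Of the 8, Sox2, Fabp7 and Slc1a3 were called lower as deposited, where 38.7% of all genes tested were. Vim, the most abundant, was called higher (-0.06 with equal column totals), as were 36.8% of all genes. With equal column totals, Sox2, Nes, Fabp7, Slc1a3, Tnc, Egfr and Gfap were called lower, from -3.14 for Fabp7 to -0.72 for Tnc. There 54.5% of all genes were called lower.

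Scale and GC content touch every fold change in the table. Setting all column totals equal moved the median log2 fold change of all genes from -0.07 to -0.77. The split of calls then went from 36.8% higher and 38.7% lower to 20.6% higher and 54.5% lower. Over the 13813 genes with a GC value, fold change and transcript GC content had a Spearman rho of 0.59. The median log2 fold change was -2.87 in the 622 transcripts under 40% GC and 0.95 in the 759 at 60% or more. A trend on GC content and transcript length, called the GC trend below, was also taken out of each library. The fit removed both together and left all libraries with the same mean log2 value, so it also changed scale. The parts of GC content, length and scale in its results were not separated. After it, 40.9% of genes were called higher and 29.0% lower. Values under both treatments are given beside the deposited ones for the 10 Notch genes, and for the other pathway genes that are named.

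Of the 10 Notch genes, 3 were called higher in mut/mut (Hes1, Hes5 and Hey1), 4 lower (Dll1, Dll3, Jag1 and Rbpj) and 3 not called (the receptors). All 3 Notch-induced repressors were thus on one side and all 3 ligands on the other in the values as deposited, but with equal totals Hes1 and Hey1 lay slightly below wt/wt. Read against the background of 36.8% and 38.7%, the counts themselves are close to those of genes at large. The 2 groups of libraries did not overlap for 8 of the 10 genes, 3 with mut/mut above and 5 below. Over all genes tested, 39.4% did not overlap with mut/mut above and 41.2% with mut/mut below. At the study's stricter threshold, an adjusted p under 1e-05 with a log2 fold change above 1 in size, none of the 10 passed in this limma fit, against 4.60% of all genes higher and 8.77% lower. At an unadjusted p under 0.05, 7 of the 10 passed, and so did 77.3% of all genes.

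**Figure D1:**
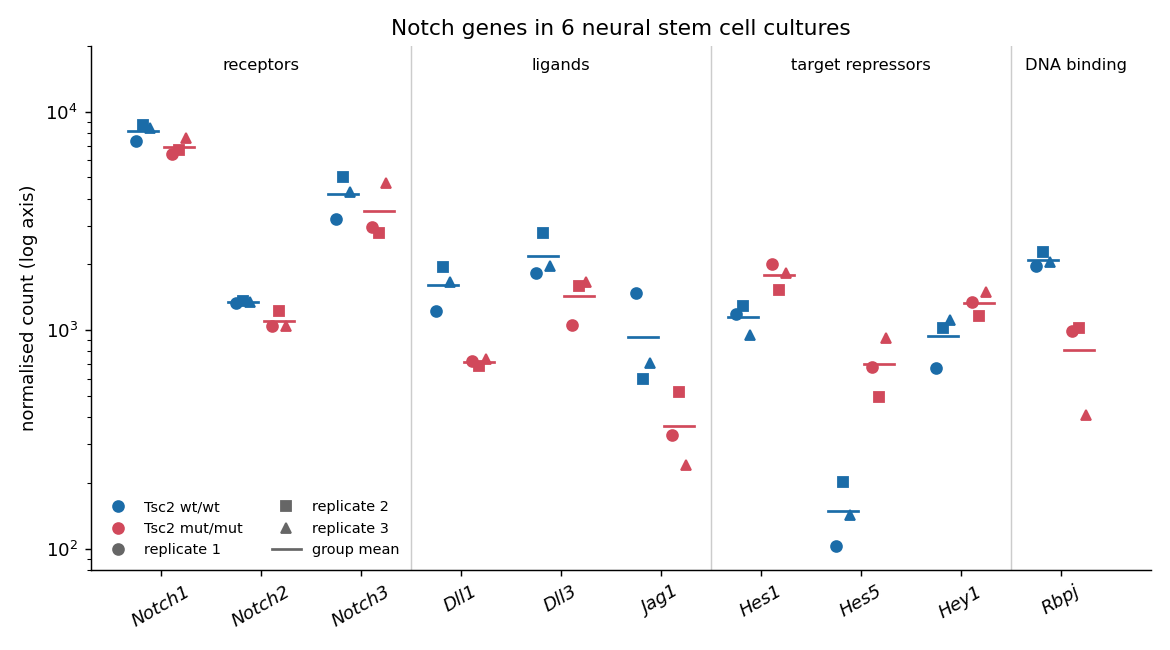
Normalised counts (log axis) of the 10 Notch genes in each of the 3 wt/wt and 3 mut/mut libraries, with replicates as symbols and group means as bars. Hes5 lay between 103 and 203 in wt/wt and between 496 and 923 in mut/mut, while the receptor Notch1 lay between 6394 and 8716 in all 6 libraries. The order of Hes1 and Hey1 between groups does not hold when column totals are set equal.

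Hes5 had the largest fold change of the 10 in the deposited values, but not with equal totals or after removal of the GC trend, where Dll1 among others moved further. It is a basic helix-loop-helix repressor (chr4:154960923-154962371, plus strand, mm10) and a classical direct target of Notch in neural progenitors. It was at 103, 203 and 142 normalised counts in wt/wt and at 680, 496 and 923 in mut/mut. Every mut/mut library was above every wt/wt library. Means were 149 ± 50.4 and 700 ± 214 (SD, n = 3 each), which is a change of 2.23 ± 0.30 (SE) on the log2 scale (adjusted p = 6.68e-05, limma). It remained called in each of 16 other treatments of the table, at 1.52 with equal totals (adjusted p = 0.00244) and at 1.05 after removal of the GC trend (adjusted p = 0.00384). Leaving out 1 library at a time gave 1.99 to 2.48. At 62.1% GC, Hes5 had the highest GC content of the 10. An estimated 165 to 543 reads lay behind its values.

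Hes1 and Hey1 moved less, and their calls were less firm. Hes1, a related repressor with oscillating expression in neural progenitors (chr16:30064384-30067796, plus strand), was at 1192, 1291 and 947 in wt/wt and at 2010, 1530 and 1819 in mut/mut. The groups did not overlap, and the log2 fold change was 0.65 ± 0.18 (adjusted p = 0.00818). The call was lost without wt/wt replicate 3 (0.52, adjusted p = 0.0545), and the value was -0.07 with equal totals (adjusted p = 0.757) and 0.04 after removal of the GC trend (adjusted p = 0.805). The Hes1 value lay above the all-gene median with equal totals (-0.77) and below it after removal of the GC trend (0.15).

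Hey1, a repressor of the Hairy-related family with a YRPW motif (chr3:8663359-8667256, minus strand), was at 674, 1023 and 1111 in wt/wt and at 1344, 1161 and 1491 in mut/mut. The lowest mut/mut library lay only just above the highest wt/wt library. Its log2 fold change was 0.53 ± 0.22 (adjusted p = 0.0431), and it was -0.18 with equal totals (adjusted p = 0.487) and 0.01 after removal of the GC trend (adjusted p = 0.965). The Hey1 call was lost without wt/wt replicate 1 (0.31, adjusted p = 0.167), wt/wt replicate 2 (0.61, adjusted p = 0.0555), mut/mut replicate 1 (0.52, adjusted p = 0.0825) or mut/mut replicate 3 (0.45, adjusted p = 0.0783). It was also lost with no filter on low values (adjusted p = 0.0542) and in limma without its trend and robust settings (adjusted p = 0.0674).

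A ratio of 2 genes within a library does not move with the scale of that library. Hes5 was at 0.0864, 0.157 and 0.150 of the Hes1 level in wt/wt and at 0.338, 0.324 and 0.507 in mut/mut. All 3 mut/mut ratios were above all 3 wt/wt ratios, by 1.58 on the log2 scale (exact two-sided permutation test, p = 0.1, the smallest possible, and 0.6 after Benjamini-Hochberg adjustment over 6 ratios). Hes5 exceeds Hes1 in transcript GC content by 11.5 percentage points, and the part of that gap in the ratio was not tested. Hey1 relative to Hes1 differed by -0.11 on the log2 scale (exact p = 0.8), with ratios of 0.565 to 1.17 in wt/wt and 0.668 to 0.820 in mut/mut.

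Rbpj, the factor through which all Notch receptors act on DNA (chr5:53466152-53657362, plus strand), moved in the opposite direction. It was at 1963, 2284 and 2046 in wt/wt and at 993, 1019 and 410 in mut/mut. All mut/mut libraries were below all wt/wt libraries, with mut/mut replicate 3 lowest. Means were 2098 ± 166 and 808 ± 344 (SD, n = 3 each), and the log2 fold change was -1.49 ± 0.31 (adjusted p = 0.00135). It was -2.20 with equal totals (adjusted p = 0.00171), but after removal of the GC trend it turned to 0.44 (adjusted p = 0.0567). At 43.7% GC, the Rbpj transcript is the poorest in GC of the 10, and the 2439 genes between 40% and 45% GC had a median log2 fold change of -1.74. Its fall was thus no larger than the median of transcripts of like GC content.

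The plot of fold change against GC content places the 10 genes beside transcripts of like composition. Hes1 and Hey1, at 50.7% and 52.6% GC, lay close to the median of 0.50 for genes between 50% and 55%. Dll1, at 54.9%, and Dll3, at 61.0%, lay far below their ranges, whose medians were 0.50 and 0.95. Notch1 and Notch3, at 57.1% and 59.6%, lay below the median of 0.91 for the range from 55% to 60%. Jag1, at 48.8%, lay below a median of -0.48. Across the 10 genes, rho between GC content and fold change was 0.45. Those 10 points share the same 6 libraries.

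**Figure D2:**
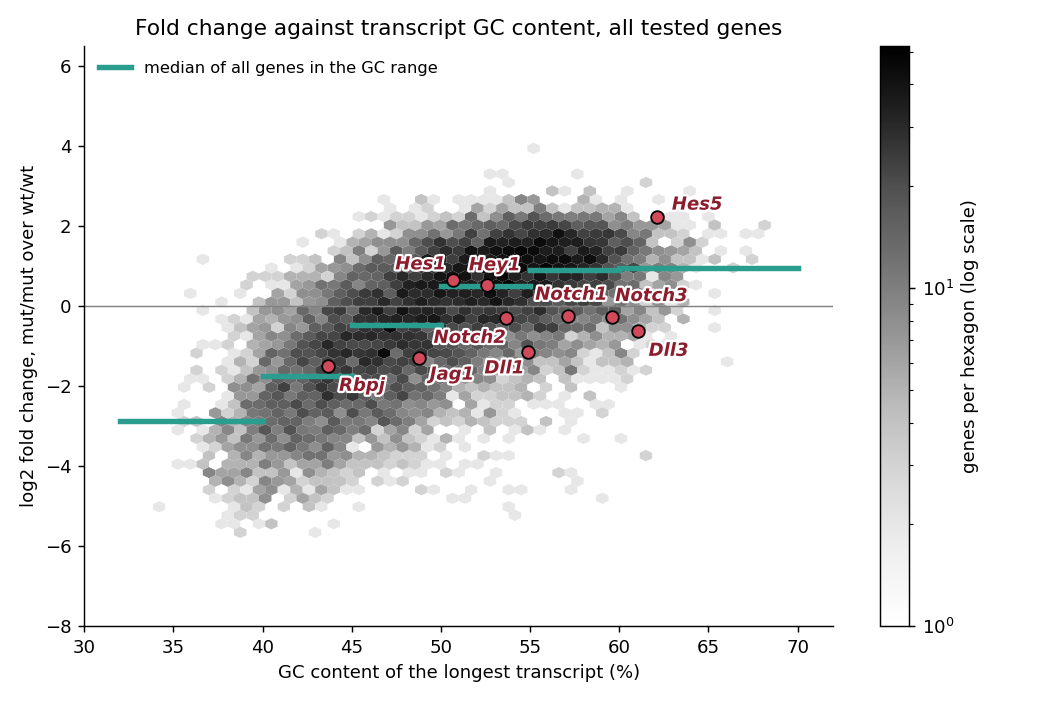
Log2 fold change, mut/mut over wt/wt, against the GC content of the longest transcript, for 13813 tested genes (grey, number of genes per hexagon on a log scale), with medians by GC range as bars and the 10 Notch genes as red points. Hes5 lay above the median of its range (0.95), Rbpj near its own (-1.74), and Dll1 and Dll3 below theirs.

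Promoters are shown for the 2 genes whose windows held the RBPJ core, TGGGAA or its reverse complement TTCCCA, because they moved in opposite directions in the deposited values. RefSeq promoters (GRCm38.p6, 250 bases before to 50 after a start) were found for 8 of the 10 genes, in 10 windows, and not for Hes1 and Hey1. The core was present in 3 of the 10 windows, those of Hes5 and Rbpj, and in 25.6% of 32851 promoter windows genome-wide. The Hes5 window (chr4:154960673-154960972, plus strand) spans the upstream region and the first transcribed bases. It holds the core at -226 on the minus strand and at -82 on the plus strand, counted to the first base of the match. The first Rbpj window (chr5:53590096-53590395, plus strand, at a start within the annotated gene) holds it at -149 on the plus strand and -65 on the minus strand, and an overlapping second window (chr5:53590236-53590535) repeats the latter site. Both are printed 5′ to 3′ with the core in capitals.
Hes5: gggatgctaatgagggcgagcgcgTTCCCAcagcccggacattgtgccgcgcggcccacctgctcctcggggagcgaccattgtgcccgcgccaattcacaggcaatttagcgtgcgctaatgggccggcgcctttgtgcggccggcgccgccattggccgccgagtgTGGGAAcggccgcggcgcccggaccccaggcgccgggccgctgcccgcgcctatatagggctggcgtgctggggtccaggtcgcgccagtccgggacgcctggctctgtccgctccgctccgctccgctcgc
Rbpj: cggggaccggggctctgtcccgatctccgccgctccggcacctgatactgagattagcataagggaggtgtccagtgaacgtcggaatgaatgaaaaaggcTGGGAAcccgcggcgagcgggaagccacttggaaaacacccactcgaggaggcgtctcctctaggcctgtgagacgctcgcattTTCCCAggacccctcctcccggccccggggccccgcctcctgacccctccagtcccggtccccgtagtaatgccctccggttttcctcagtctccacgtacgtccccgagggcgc

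These letters are a match and no more, since binding was not measured. The windows of the receptors and ligands held no RBPJ core. The E-box CACGTG, a palindrome, was in none of the 10 windows and in 7.15% of windows genome-wide. The N-box, CACNAG read on both strands, to which Hes repressors can bind, was counted 3 times in the window of Notch1, 2 times in that of Notch3, and 1 time each in those of Notch2 and of 1 of the Dll1 starts, against at least 1 match in 42.5% of windows genome-wide.

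All 3 ligands among the 10 fell. Dll1, a Delta ligand that activates receptors on neighbouring cells (chr17:15367354-15376872, minus strand), was at 1224, 1950 and 1656 in wt/wt and at 726, 685 and 741 in mut/mut. The mut/mut libraries were tightly grouped and all below wt/wt. Means were 1610 ± 365 and 717 ± 29.1 (SD, n = 3 each). The log2 fold change of -1.14 ± 0.20 (adjusted p = 0.000365) became -1.85 with equal totals (adjusted p = 0.000151) and -1.58 after removal of the GC trend (adjusted p = 3.27e-05). Dll1, like Hes5, remained called in each of 16 other treatments, with values of -1.33 to -0.99 when 1 library was left out.

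Dll3, a divergent Delta protein known to inhibit Notch signalling within the cell that makes it (chr7:28293553-28302238, minus strand), was at 1824, 2792 and 1967 in wt/wt and at 1054, 1599 and 1663 in mut/mut. The groups did not overlap, but the highest mut/mut and lowest wt/wt libraries were close. The log2 fold change was -0.61 ± 0.23 (adjusted p = 0.031), -1.33 with equal totals (adjusted p = 0.00104) and -1.38 after removal of the GC trend (adjusted p = 0.000116). The Dll3 call was lost without wt/wt replicate 2 (-0.43, adjusted p = 0.144), without mut/mut replicate 1 (-0.40, adjusted p = 0.117) and in limma without its trend and robust settings (adjusted p = 0.0572).

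Jag1, a ligand of the Jagged class (chr2:137081456-137116644, minus strand), was at 1479, 596 and 706 in wt/wt and at 332, 523 and 240 in mut/mut. wt/wt replicate 1 stood well above the other libraries, and mut/mut replicate 2 came near the lower wt/wt libraries without overlap. The log2 fold change was -1.30 ± 0.36 (adjusted p = 0.00786). It was -2.01 with equal totals (adjusted p = 0.00366), and after removal of the GC trend it was -0.43 and not called (adjusted p = 0.256). Without wt/wt replicate 1, or any other single library, the call held, at -1.59 to -0.90. Jag1 also had the fewest estimated reads, 96 in its lowest library.

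Among ligands, Dll3 was at 1.49, 1.43 and 1.19 of the Dll1 level in wt/wt and at 1.45, 2.33 and 2.24 in mut/mut, a difference of 0.53 on the log2 scale in which the groups overlapped (exact p = 0.2, adjusted 0.6). Jag1 relative to Dll1 ranged from 0.305 to 1.21 in wt/wt and from 0.324 to 0.764 in mut/mut (difference -0.16, exact p = 0.9). The groups overlapped in both ratios. With 3 libraries per group the smallest exact p is 0.1, so this test could not resolve a shift in the makeup of the ligands at 0.05.

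The receptors showed the smallest fold changes of the set in the deposited values, and Notch1 was the most abundant gene of the 10. Notch1 (chr2:26457903-26516663, minus strand) was at 7353, 8716 and 8460 in wt/wt and at 6394, 6679 and 7583 in mut/mut. The groups overlapped by 1 library, and the log2 fold change was -0.25 ± 0.15 (adjusted p = 0.158). Notch1 was called lower without mut/mut replicate 3 (-0.32, adjusted p = 0.0241) and with equal totals (-0.96, adjusted p = 0.000191). It was called higher after removal of the GC trend (0.37, adjusted p = 0.00829). That treatment removes transcript length as well, and the Notch2 and Notch1 transcripts, at 10500 and 9488 bases, are the longest of the 10. Which part changed the sign of these 2 receptors was not tested.

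Notch2 (chr3:98013527-98150361, plus strand) was at 1332, 1353 and 1346 in wt/wt, the narrowest spread of the 10, and at 1045, 1222 and 1043 in mut/mut. All mut/mut values were lower, yet the log2 fold change of -0.29 ± 0.16 did not pass (adjusted p = 0.115). As with Notch1, the call depended on the treatment, at -1.0 with equal totals (adjusted p = 0.00103) and 0.59 after removal of the GC trend (adjusted p = 0.00158).

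Notch3, a receptor also prominent in mural cells of vessels (chr17:32120820-32166852, minus strand), was at 3238, 5030 and 4285 in wt/wt and at 2963, 2785 and 4735 in mut/mut. The groups overlapped, mut/mut replicate 3 being above 2 of the wt/wt libraries. The log2 fold change was -0.28 ± 0.24 (adjusted p = 0.3), -0.52 without mut/mut replicate 3 (adjusted p = 0.0226), -0.99 with equal totals (adjusted p = 0.00283) and 0.14 after removal of the GC trend (adjusted p = 0.467).

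The balance among receptors was similar in value. Notch2 was at 0.155 to 0.181 of the Notch1 level in wt/wt and at 0.138 to 0.183 in mut/mut (log2 difference -0.04, exact p = 1). Notch3 was at 0.440 to 0.577 of Notch1 in wt/wt and at 0.417 to 0.624 in mut/mut (log2 difference -0.03, exact p = 0.9). With 3 libraries per group, a p of this kind does not show that the ratios were equal.

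**Figure D3:**
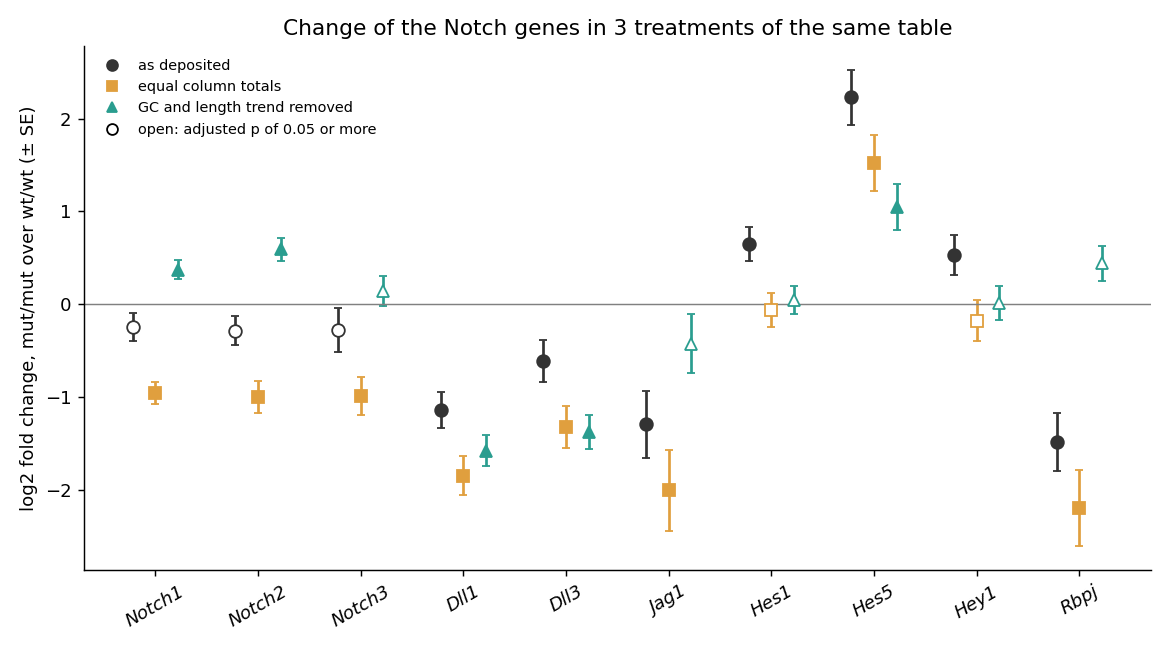
Log2 fold change ± SE of the 10 Notch genes, mut/mut over wt/wt, with values as deposited, with equal column totals, and with the trend on GC content and length removed (open symbols: adjusted p of 0.05 or more). Hes5 stayed above 0 (2.23, 1.52 and 1.05) and Dll1 below 0 (-1.14, -1.85 and -1.58), while the receptors, Hes1, Hey1 and Rbpj changed sign in at least 1 treatment.

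Counting calls under the other treatments gave 3 higher and 2 lower of the 10 after removal of the GC trend (background 40.9% and 29.0%), and 1 higher and 7 lower with equal totals (background 20.6% and 54.5%). The median log2 fold change of the 10 was -0.28 as deposited, 0.09 with the trend removed and -0.996 with equal totals, where all genes had -0.07, 0.15 and -0.77. Hes5, Dll1 and Dll3 were called in the same direction in all 3 treatments.

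Per kilobase of the longest transcript, wt/wt cultures held most Notch1 (862 ± 76.4 normalised counts per kb), Dll3 (838 ± 200) and Hes1 (779 ± 121). Their ranges over libraries overlapped, so their order was not resolved. Notch3 (404 to 628 per kb), Dll1 (342 to 545), Rbpj (358 to 416) and Hey1 (278 to 459) followed with ranges that also overlapped one another. Jag1 (106 to 264), Notch2 (127 to 129) and Hes5 (80.8 to 159) were lowest, again with overlap. In mut/mut, Hes1 was highest (1217 ± 165 per kb), above Notch1 (726 ± 65.5) in every library. Hes5 (550 ± 168) then lay with Hey1 (550 ± 68.3) and Dll3 (550 ± 128), and Jag1 was lowest (42.8 to 93.2), its range below that of Notch2 (99.4 to 116). These levels depend on the transcript taken as the length of each gene.

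A wider list of 76 Notch pathway genes, which includes the 10, was grouped by role. Of its 71 tested genes, 23 were called higher and 30 lower (background 36.8% and 38.7%), with a median log2 fold change of -0.28. With equal totals these counts were 14 and 45 (background 20.6% and 54.5%), and after removal of the GC trend 24 and 28 (background 40.9% and 29.0%). Groups of libraries did not overlap for 25 genes with mut/mut above and 29 below (background 39.4% and 41.2%). At the study's stricter threshold 0 passed as higher and 6 as lower (background 4.60% and 8.77%).

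**Figure D4:**
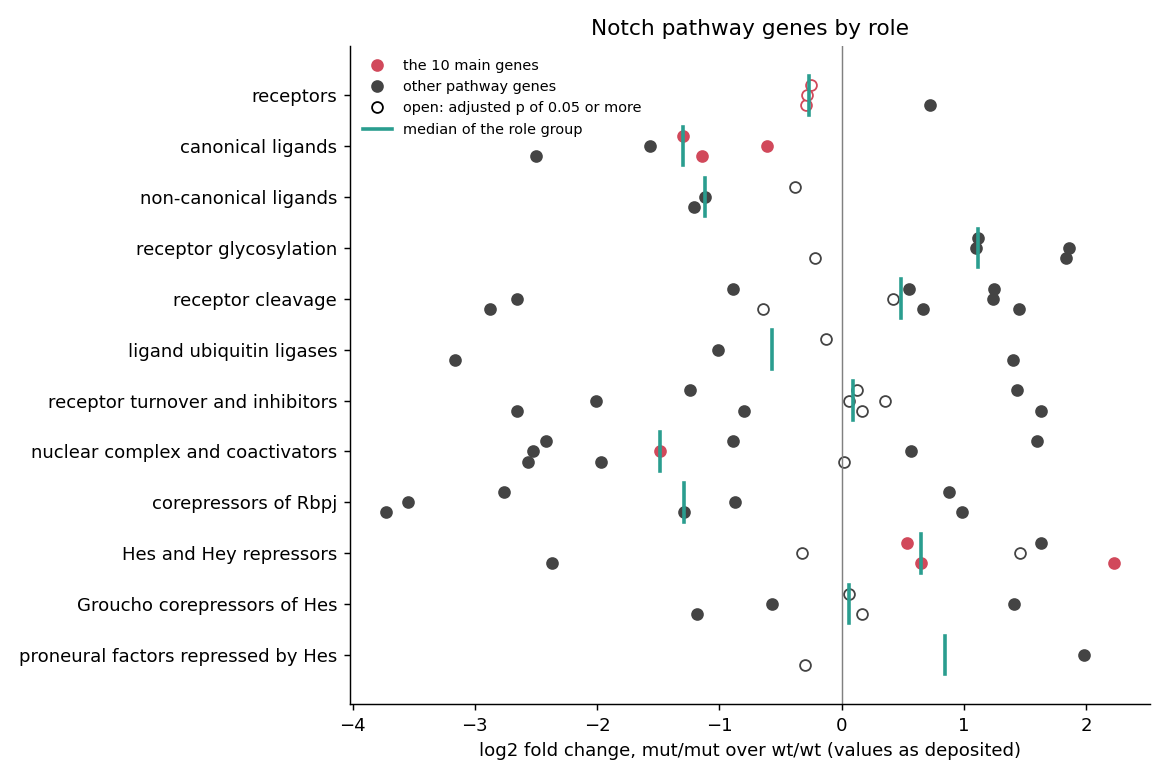
Log2 fold change, mut/mut over wt/wt, of 71 tested Notch pathway genes by role, with values as deposited (red: the 10 Notch genes; open: adjusted p of 0.05 or more; bars: medians of each role). Canonical ligands lay below 0 with a median of -1.30, and genes of receptor glycosylation had a median of 1.11, which was 0.40 with equal column totals.

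The canonical ligands all fell, 5 of 5 (background 38.7%). Beside Dll1, Dll3 and Jag1 these were Jag2, the second Jagged ligand, which went from 59.4, 131 and 115 in wt/wt to 14.8, 16.6 and 17.6 in mut/mut (-2.50 ± 0.35, adjusted p = 9.05e-05), and Dll4, from 22.2, 44.6 and 46.0 to 8.63, 22.8 and 7.37 (-1.56 ± 0.48, adjusted p = 0.0132). The Dll4 call was lost without wt/wt replicate 2 (-1.41, adjusted p = 0.0515), and both genes rest on few reads. With equal totals all 5 were called lower (background 54.5%). After removal of the GC trend 4 of 5 were (background 29.0%), Jag1 being the exception. Of 3 non-canonical ligands, Dner, a transmembrane protein with EGF repeats, fell (-1.12 ± 0.18, adjusted p = 0.000241), as did Dlk1, a Delta-like protein that lacks the receptor-binding domain of the canonical ligands (-1.21 ± 0.38, adjusted p = 0.0149). The Dlk1 call was lost without wt/wt replicate 2 (-0.999, adjusted p = 0.0559), wt/wt replicate 3 (-1.001, adjusted p = 0.0524) or mut/mut replicate 1 (-0.93, adjusted p = 0.0563). With equal totals and after removal of the GC trend, Jag2 was at -3.18 and -2.61, Dll4 at -2.23 and -2.01, Dner at -1.83 and -1.31, and Dlk1 at -1.92 and -1.25, each called in both. Dlk2 was not called (-0.39 ± 0.39, adjusted p = 0.382), and without mut/mut replicate 1 it lay at 0.005. Dlk2 was called lower with equal totals (-1.08, adjusted p = 0.0265) and after removal of the GC trend (-1.42, adjusted p = 0.00371).

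Enzymes that add sugars to the receptor rose, 4 of 5 (background 36.8%). With equal totals 3 were higher and 1 lower (background 20.6% and 54.5%). Lfng, the Fringe glycosyltransferase that tunes which ligands a receptor answers to, was at 6090, 5842 and 6574 in wt/wt and at 18919, 18491 and 30202 in mut/mut. All mut/mut libraries were far above wt/wt (1.83 ± 0.20, adjusted p = 1.73e-05), and Lfng stayed called with equal totals (1.12, adjusted p = 0.000189) and after removal of the GC trend (0.98, adjusted p = 3.07e-05). A second Fringe, Mfng, rose from 177 ± 54.6 to 656 ± 269 (1.86 ± 0.32, adjusted p = 0.000399). The third, Rfng, rose in the deposited values (1.10 ± 0.22, adjusted p = 0.00114) but was not called with equal totals (adjusted p = 0.0679) or with the trend removed (adjusted p = 0.211). Pofut1, which adds the fucose that Fringe enzymes extend, rose by 1.11 ± 0.16 (adjusted p = 0.000121). With equal totals and after removal of the GC trend, Mfng was at 1.15 and 0.86, Rfng at 0.39 and 0.17, and Pofut1 at 0.40 and 1.53. Dll4, Rfng and Nrarp are named here after their values were seen.

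Genes of receptor cleavage went both ways, with 5 of 10 called higher and 3 lower (background 36.8% and 38.7%). Setting column totals equal gave 3 calls up and 4 down (background 20.6% and 54.5%). Both pairs of counts lie near those of genes at large. Adam10 and Adam17, the proteases of the first cut after ligand binding, fell from 4800 ± 489 to 683 ± 254 (-2.88 ± 0.26, adjusted p = 5.2e-06) and from 2900 ± 46.5 to 510 ± 242 (-2.65 ± 0.34, adjusted p = 5.46e-05). After removal of the GC trend they were at -0.86 and -1.32, and with equal totals at -3.59 and -3.36, called in both. Aph1a, a subunit of the gamma-secretase that makes the final cut, rose (1.45 ± 0.19, adjusted p = 5.19e-05), and was at 0.74 with equal totals and 0.94 after removal of the GC trend. Among 4 ubiquitin ligases that act on ligands, Mib1 fell (-3.16 ± 0.20, adjusted p = 6.74e-07, and -0.49 with the trend removed), Neurl1b fell (-1.01 ± 0.17, adjusted p = 0.000292) and Neurl1a rose (1.40 ± 0.23, adjusted p = 0.000243). With equal totals Mib1 was at -3.87, Neurl1b at -1.72 and Neurl1a at 0.69, and after removal of the GC trend Neurl1b was at -0.80 and Neurl1a at 1.03.

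Of 10 genes of receptor turnover and inhibition, 2 were called higher and 4 lower (background 36.8% and 38.7%). With equal totals these counts were 2 and 7 (background 20.6% and 54.5%). Dtx4, a Deltex ligase, rose (1.44 ± 0.15, adjusted p = 1.5e-05). Fbxw7, which marks the active receptor fragment for degradation, fell (-2.66 ± 0.34, adjusted p = 5.46e-05), and Itch, another ligase, was at -2.01 ± 0.26 (adjusted p = 5.42e-05) but at 0.20 with the trend removed (adjusted p = 0.203). With equal totals Dtx4 was at 0.72, Fbxw7 at -3.37 and Itch at -2.72, and after removal of the GC trend Dtx4 was at 1.70 and Fbxw7 at -1.65. Nrarp, a feedback inhibitor that is itself induced by Notch, was at 1368, 1659 and 1579 in wt/wt and at 1941, 1435 and 2682 in mut/mut. The Nrarp groups overlapped and it was not called (0.35 ± 0.22, adjusted p = 0.172). It was called without mut/mut replicate 2 (0.58, adjusted p = 0.0362), and lay at -0.36 with equal totals and at -0.28 with the trend removed.

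In the nuclear complex, 2 of 9 genes were called higher and 6, Rbpj among them, lower (background 36.8% and 38.7%). With equal totals 1 was higher and 7 lower (background 20.6% and 54.5%). After removal of the GC trend 3 were higher and 4 lower (background 40.9% and 29.0%), and the median moved from -1.49 to -0.10. The acetyltransferases Ep300 (-1.97 ± 0.20, adjusted p = 9.82e-06) and Crebbp (-2.42 ± 0.27, adjusted p = 1.85e-05) fell, and Kat2a rose (1.60 ± 0.18, adjusted p = 1.81e-05). With equal totals Ep300, Crebbp and Kat2a were at -2.68, -3.12 and 0.89, and after removal of the GC trend at -0.89, -1.32 and 0.94. Against the same backgrounds, 5 of 7 corepressor genes that work with Rbpj were called lower and 2 higher, or 5 and 0 with equal totals. After removal of the GC trend 3 were lower and 2 higher, Spen and L3mbtl3 being no longer called. Cir1 (-3.73 ± 0.28, adjusted p = 2.23e-06), Kdm5a (-3.55 ± 0.29, adjusted p = 3.37e-06) and Ncor1 (-2.76 ± 0.25, adjusted p = 5.65e-06) fell most clearly, and after removal of the GC trend they were at -2.46, -0.80 and -1.30, and with equal totals at -4.43, -4.26 and -3.47.

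Of 7 tested Hes and Hey genes, 4 were called higher as deposited and 1 lower (background 36.8% and 38.7%). With equal totals, however, 2 were called higher and 2 lower (background 20.6% and 54.5%). Beside the 3 described above, Hes6, which differs from other Hes proteins in promoting neurogenesis, rose from 5172 ± 702 to 16360 ± 4618 (1.63 ± 0.21, adjusted p = 4.71e-05), and stayed higher with equal totals (0.92) and after removal of the GC trend (0.45). Hey2 fell from 34.8 ± 15.3 to 6.36 ± 4.36 (-2.37 ± 0.52, adjusted p = 0.00188), at low counts, and was at -3.00 with equal totals and -1.69 after removal of the GC trend. Among 5 Groucho corepressors, of which 1 was called higher and 2 lower (1 and 4 with equal totals), Aes rose (1.41 ± 0.19, adjusted p = 7.09e-05) and Tle2 fell (-1.18 ± 0.20, adjusted p = 0.000281). With equal totals Aes was at 0.70 and Tle2 at -1.89, and after removal of the GC trend Aes was at 0.25 (adjusted p = 0.0359) and Tle2 at -1.92. Tle4 was at -0.57 ± 0.19 (adjusted p = 0.0204). The Tle4 call was lost without wt/wt replicate 1 (-0.45), wt/wt replicate 2 (-0.59) or mut/mut replicate 2 (-0.56), and Tle4 lay at -1.28 with equal totals but at 0.25 after removal of the GC trend.

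Genes listed as held down by Hes factors, which are proneural factors and Insm1, were mostly too low to test, 2 of 7 passing the filter. Of those too low, Neurog2 was at 8.85, 8.23 and 11.8 in wt/wt and at 0 in all 3 mut/mut libraries. Neurod4 and Neurod1 were at most 3.54 and 9.32 in any library, and Neurog1 and Atoh1 were at 0 throughout. Insm1, a zinc finger factor of neuronal precursors, rose from 301 ± 105 to 1183 ± 326 (1.99 ± 0.28, adjusted p = 8.7e-05), and was at 1.27 with equal totals and 1.33 after removal of the GC trend. The fourth receptor, Notch4, was low, at 70.3 ± 6.30 and 117 ± 13.9. It was called higher (0.72 ± 0.23, adjusted p = 0.0162), but not without wt/wt replicate 2 (0.69, adjusted p = 0.0614), without wt/wt replicate 3 (0.68, adjusted p = 0.0675) or with equal totals (0.015, adjusted p = 0.951). After removal of the GC trend Notch4 was at 0.93.

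Markers of other cells that use these genes also moved between the groups. In bulk RNA, fewer cells of a type and less RNA per cell cannot be told apart. Counts of markers are those of the deposited values, where 36.8% of all genes tested were called higher and 38.7% lower. Of 6 oligodendrocyte precursor markers, 4 fell (Pdgfra, Gpr17, Sox10 and Cspg4) and 2 rose (Olig1, at 0.76, and Olig2, at 0.35). With equal totals Olig1 was at 0.04 and not called, and Olig2 was called lower (-0.37), as were the other 4. Olig1 was most abundant, and the summed level was 132361 to 144527 in wt/wt and 172669 to 242383 in mut/mut. This sum and the marker sums below are on the deposited scale, where normalised totals were larger in mut/mut. Of 6 neuroblast markers, 4 rose and Dcx fell to nearly 0, the sum being 2417 to 4182 in wt/wt and 5153 to 6308 in mut/mut. With equal totals Dlx2 (0.84) and Stmn2 (1.63) stayed called higher, and Cd24a (0.26) and Tubb3 (0.44) were not called. Dlx1 was then called lower (-1.38), as was Dcx (-7.18). The 7 endothelial markers, of interest for Dll4 and Jag1, summed to 463 to 943 in wt/wt and to 106 to 220 in mut/mut, mainly through Flt1. Of the 3 tested, Flt1 fell and Kdr rose, from 9.34 ± 2.27 to 21.4 ± 4.25 (1.12 ± 0.39, adjusted p = 0.0219, limma). Kdr was not called with equal totals (0.46, adjusted p = 0.287, limma). Cldn5, too low to test, was at 0, 0.75 and 0 in wt/wt and at 6.03, 7.62 and 12.3 in mut/mut. Emcn was at most 4.54 in any library. Pecam1, which was too low to test, was at 9.96, 18.7 and 23.4 in wt/wt and at 2.58, 4.80 and 0 in mut/mut. Pecam1 and Flt1 were thus lower in all 3 mut/mut libraries, while Kdr and Cldn5 were higher in all 3.

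Mural markers, of interest for Notch3, summed to 164 to 263 in wt/wt and to 5526 to 7748 in mut/mut. Only Acta2 and Tagln among the 4 tested of 8 rose. Kcnj8 and Abcc9 were at most 6.56 and 3.98 in any library, and Rgs5, too low to test, was at 12.4, 11.3 and 14.5 in wt/wt and at 0, 0.93 and 0 in mut/mut. Of 7 microglial markers 5 fell, C1qa being most abundant, with sums of 234 to 723 and 26.2 to 52.2. Cx3cr1, Aif1 and Ptprc were listed at 0 in all 3 mut/mut libraries. Of 6 ependymal markers, 3 were tested and 2 rose, Foxj1 and Rarres2. Sums of 772 to 1172 and 6016 to 8801 were mostly Foxj1, at 845 ± 181 in wt/wt and 6776 ± 1417 in mut/mut. Foxj1 was at 2.29 with equal totals, where Rarres2 was not called (adjusted p = 0.104, limma). Ccdc153 was not called as deposited (adjusted p = 0.432, limma). Dnah5, too low to test, was at 4.80, 16.1 and 4.40 in wt/wt and at 0, 0.93 and 0 in mut/mut. The part of such cells in the levels of the Notch genes was not tested.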

How the data were processed

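Poly(A) RNA of 6 NSC cultures (3 wt/wt, 3 mut/mut, grouped by GEO's genotype labels) had been sequenced in pairs. Per the methods and the submitters' processing notes, reads were aligned to mm10 with STAR. The deposited values are a signal on the scale of counts, 1 value per gene and library, after normalisation with DESeq2 by the authors. How genes were counted, on which annotation and with what strand setting is not given in the sources used here. Reads of close paralogues, and of genes that overlap on either strand, could therefore not be separated. Values were not whole, and 62.2% to 85.0% of low values lay within 0.1 of a multiple of the step of 1 read, so no count test was run. Read numbers are totals divided by that step, an estimate, and the precision they give covers counting error only. The authors' values for 6503 names were 0 in all libraries.

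Values were taken as log2(value + 1). Genes with a mean of at least 10 entered a linear model in limma 3.58.1 under R 4.3.3 (genotype as the only term, trend and robust settings, two-sided, Benjamini-Hochberg over all genes tested). The log2(value + 1) scale understates changes of low genes. The fit was tested on simulated data. Alternatives were a pseudocount of 10 or 0.1, no filter or a mean of at least 100, equal column totals, recomputed size factors, spline trends on GC content and log2 length subtracted from each library, plain limma, a replicate block, and each library left out. Ratios were compared by exact permutation. Positions, lengths and GC content came from a GENCODE annotation of mm10, matched for 24464 names, and promoters from RefSeq. The name of 1 wt/wt column lacks 1 digit of the label it was matched to (replicate 2), which bears on the replicate number alone.

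The 10 Notch genes and all lists were chosen with earlier results of these data known. All 10 were named, and of the wider list the 3 tested genes of each role with the smallest adjusted p, with the summed level and most abundant gene of each marker list. Markers named beyond that were chosen after their values were seen. The result of 1 gene that this rule names is not reported here.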

Additional observations from a re-analysis of the deposited data

How the results depend on the processing

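Hes5 and Dll1 kept their direction and call in all 16 alternatives, and Jag1 and Rbpj in all 6 that left out a library. Equal column totals gave 2874 genes called higher, 1 Notch gene higher and 7 lower, and 14 genes of the wider list higher, and put Hes1 at -0.066, Hey1 at -0.18 and Nrarp at -0.36. After removal of the GC and length trend, without or with the replicate block, 2 of the 10 Notch genes were called lower, and Notch1 was at 0.37, Notch2 at 0.59, Notch3 at 0.14, Rbpj at 0.44, Itch at 0.20, Tle4 at 0.25 and Nrarp at -0.28. The causes were not tested. Leaving out 1 library moved Dlk2 between -0.65 and 0.005. Same-numbered libraries deviated together weakly (r = 0.11, 0.00 and 0.07), and not every library correlated best with its own number, so the numbers were not taken as pairs. The replicate block gave 5102 genes called higher and 5474 lower, with 3 and 4 of the Notch genes. Together with the trend removed it called 4 Notch genes higher, with Rbpj at an adjusted p of 0.0296. Groups of 3 are too small for a check of single outlying libraries.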
